A study of Rattus norvegicus with 18 samples.

Results

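The comparison described here sets the heart miRNAs of spontaneously hypertensive rats against those of Wistar Kyoto rats. It uses 12 of the 18 small RNA libraries of the study, 6 labelled WKY (given as normal) and 6 labelled SHR (given as hypertension), all from heart tissue with no mention of a chamber. The other 6 libraries come from SHR given QDG (given as QDG treatment). The design text says that SHR received NS or QDG; no label states which libraries received NS, so the SHR group is taken here as the one not given QDG, and its agent is assumed rather than stated. The sources do not say what NS or QDG stands for. The sources used here give no age, sex or blood pressure, and strain, blood pressure and handling cannot be told apart as the origin of a difference. Each group has 6 libraries, and no label says that each came from a separate rat. The p-values therefore set a difference against the scatter of libraries within a group, which may be in part technical. Of 599 listed rat miRNAs, 410 had at least 1 normalized read in at least 6 of the 18 libraries and were compared, and the other 189 were not tested. The 6 SHR and the 6 QDG libraries are both of SHR rats. A miRNA present only in SHR rats could therefore pass this filter more easily than one present only in WKY.

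A miRNA gene is transcribed as a long RNA that folds into a hairpin. The hairpin is cut into a short duplex, and one of its strands, from the 5p or the 3p arm, is kept in the silencing complex more often than the other. Bases 2 to 8 of the kept strand, the seed, pair with target mRNAs, so miRNAs that share a seed form a family with overlapping targets. Several miRNA genes often lie close together and are transcribed as 1 unit, called a cluster here when neighbouring genes on 1 strand start within 10000 bases of each other. In the heart, miR-1, miR-133, miR-208 and miR-499 are known as the muscle miRNAs, and miR-21, miR-29, miR-34 and miR-132 are known from work on cardiac growth and scarring.

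The sequences on which the comparison turns are shown here, taken from RefSeq on the rat build GRCr8, written 5′ to 3′ in lower case with the seed in capitals. RefSeq sequences were matched by name for 542 of the 599 listed miRNAs, and for 372 of the 410 tested, and seed families and clusters below hold matched miRNAs only. The first set holds the muscle miRNAs of 1 seed, of which 1 member rose while its near twin did not.
miR-1b: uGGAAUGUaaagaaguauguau
miR-1-3p: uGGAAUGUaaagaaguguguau
miR-206-3p: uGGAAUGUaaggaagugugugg

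miR-1b (chr3:187864736-187864757 (+ strand)) and miR-1-3p (chr18:2160339-2160360 (- strand)) differ by A17G, counted from 1 at the 5′ end with the base of miR-1b first, outside the seed. The second set holds the 5p miRNAs of the miR-34 and miR-449 seed, whose members were called in both directions.
miR-34a-5p: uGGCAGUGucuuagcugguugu
miR-34b-5p: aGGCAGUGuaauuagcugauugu
miR-34c-5p: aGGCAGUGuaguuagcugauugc
miR-449a-5p: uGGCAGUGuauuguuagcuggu

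miR-34b-5p (chr8:60306657-60306679 (- strand)) and miR-34c-5p (chr8:60306133-60306155 (- strand)) come from neighbouring hairpins and differ by A11G and U23C, with the base of miR-34b-5p first. miR-34a-5p (chr5:165815971-165815992 (+ strand)) comes from another chromosome. The third set holds the 3 members of the cluster with the highest median change, which have similar but not identical seeds (chr4:59752249-59752273 (- strand) for miR-182).
miR-182: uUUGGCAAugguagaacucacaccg
miR-96-5p: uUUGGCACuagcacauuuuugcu
miR-183-5p: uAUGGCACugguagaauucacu

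The fourth set holds both arms of the hairpin whose arm balance was called (chr4:66014607-66014626 (+ strand) and chr4:66014644-66014665 (+ strand)).
miR-490-5p: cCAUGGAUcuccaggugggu
miR-490-3p: cAACCUGGaggacuccaugcug

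The fifth set holds 3 let-7 miRNAs that fell by a similar amount, miR-351-5p with the relatives of the same seed, and the miR-132 and miR-212 pair. let-7a-5p and let-7e-5p differ by U9G, with the base of let-7a-5p first.
let-7a-5p: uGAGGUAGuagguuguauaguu
let-7d-5p: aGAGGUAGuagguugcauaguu
let-7e-5p: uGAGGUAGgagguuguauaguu
miR-351-5p: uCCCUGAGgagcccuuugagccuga
miR-125a-5p: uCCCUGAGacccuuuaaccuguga
miR-125b-5p: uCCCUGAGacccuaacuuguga
miR-132-3p: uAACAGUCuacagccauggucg
miR-212-3p: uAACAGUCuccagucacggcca

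The libraries were of similar depth. Reads over all miRNAs were 6465025 to 9463554 in WKY and 6420666 to 10169581 in SHR, so that 1 read was worth 0.153 to 0.224 normalized reads in WKY and 0.135 to 0.225 in SHR. Each library listed 486 to 519 miRNAs above 0 in these 12 libraries. SHR replicate 5 stood apart on the second principal component and WKY replicate 1 on the third, and the main counts are given below also without both libraries, a setting chosen after seeing the data. The 6 miRNAs of the heart muscle list (miR-1-3p, miR-1b, miR-133a-3p, miR-133b-3p, miR-208a-3p and miR-499-5p) summed to 504485 to 623744 normalized reads in WKY and 508506 to 591955 in SHR and all 6 were above 0 in every library. Levels here are reads per mature miRNA with no length term, and fewer cells of a type and less RNA per cell cannot be told apart in whole tissue.

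In SHR hearts 33 of the 410 tested miRNAs were higher than in WKY hearts and 62 were lower, by limma on log2(normalized reads + 1) with Benjamini-Hochberg adjusted p under 0.05. That is 8.05% of tested miRNAs higher, 15.1% lower and 23.2% in either direction, the background for every count below. The split between directions depended on the scaling: the same test with RLE scaling called 46 higher and 47 lower, and DESeq2 on the recovered reads called 52 higher and 44 lower. The SHR and WKY values did not overlap for 42 miRNAs (10.2%), 14 higher and 28 lower in SHR. On the log2(normalized reads + 1) scale most called differences were small, and 12 of the 95 reached a change of 1 in either direction, 6 up and 6 down. That scale understates the changes of low miRNAs, and 33 of the 95 averaged under 10 normalized reads. The median log2 change over all tested miRNAs was -0.07, and 0.00 with RLE scaling. Without WKY replicate 1 and SHR replicate 5, 23 miRNAs were higher and 77 lower.

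**Figure D1:**
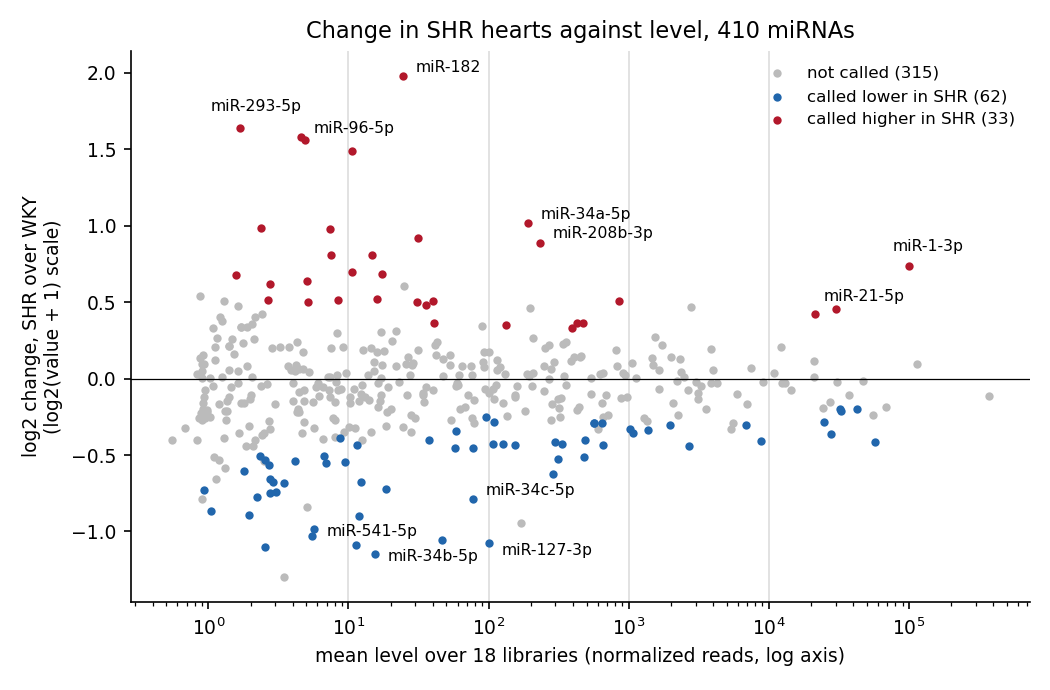
Log2 change in SHR over WKY hearts (vertical axis, log2(value + 1) scale) against the mean level over 18 libraries (horizontal log axis, normalized reads) for 410 miRNAs, 1 point each; grey lines part the abundance classes. The 62 called lower (blue) lie in every abundance class, and the 33 called higher (red) in every class but that from 1000 to 10000. Among the called miRNAs, miR-182 is at the top (1.98) and miR-1-3p (0.74) at the far right.

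Called miRNAs were found in every abundance class, cut by the mean over all 18 libraries. Below 10 normalized reads, 12 of 161 were higher and 21 lower (20.5% called). Between 10 and 100, 11 of 102 were higher and 13 lower (23.5%), and between 100 and 1000, 7 of 81 were higher and 15 lower (27.2%). Between 1000 and 10000, 7 of 41 were lower and 0 higher by limma (17.1% called), where 3 were higher at an unadjusted p under 0.05, edgeR called 0 higher and DESeq2 called 4 higher. Of the 25 miRNAs at 10000 or more, 3 were higher and 6 lower (36.0%), and the lower calls dropped to 3 with TMM and 2 with RLE scaling. Without WKY replicate 1 and SHR replicate 5, the classes from lowest to highest had 7, 9, 4, 0 and 3 miRNAs higher and 25, 16, 20, 10 and 6 lower. The median standard error of a log2 change fell from 0.19 in the lowest class to 0.09 in the highest, so smaller differences could be called at higher levels.

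The 3 that rose among the most abundant were miR-1-3p, miR-21-5p and miR-378a-3p, and the 6 that fell were miR-99a-5p, let-7f-5p, let-7g-5p, miR-30a-5p, miR-30d-5p and miR-30e-5p (let-7f-5p was named after its values were seen). miR-378a-3p, from an intron of the gene for the metabolic coactivator PGC-1β, ranged over 19801 to 28419 (median 23267) normalized reads in WKY and 27185 to 37397 (median 31582) in SHR, a log2 change of 0.45 ± 0.09 (SE, n = 6 per group, limma adjusted p = 0.000326). The ranges overlapped slightly, and all 6 SHR libraries were above the WKY mean. miR-21-5p, widely studied in cardiac fibroblasts, ranged over 16129 to 18611 (median 17252) in WKY and 18434 to 35198 (median 22108) in SHR (0.42 ± 0.11, adjusted p = 0.00513), with 1 SHR library far above the rest. The fall of miR-99a-5p was from 61869.7 to 71986 (median 66823) to 41955 to 61240.3 (median 49918) (-0.42 ± 0.08, adjusted p = 0.000233), with no overlap. The 3 abundant falls of let-7g-5p (-0.21), miR-30a-5p (-0.20) and miR-30d-5p (-0.20) were lost under TMM and RLE scaling, without the 10 most abundant miRNAs in the scaling, and under DESeq2. The call of miR-30e-5p was lost under RLE scaling and without WKY replicate 5 or SHR replicate 4. The other 7 of the 12 most abundant, miR-1b (-0.12), miR-26a-5p (-0.19), miR-143-3p (-0.24), miR-133a-3p (-0.01), miR-30c-5p (-0.11), miR-27b-3p (-0.02) and the endothelial miR-126a-3p (0.09) did not pass the test. miRNAs of 10000 or more made up 88.02 ± 0.779% of reads (SD, n = 6) in WKY and 88.4 ± 0.499% in SHR, and no class share differed detectably (exact permutation tests, adjusted p from 0.720 to 0.926 over 5 classes).

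Among the muscle miRNAs, the difference lay between near-identical sequences. miR-1-3p rose from 62278 to 85643 (median 70001) normalized reads in WKY to 105215 to 129327 (median 119176) in SHR, with 114051 as the QDG median (0.74 ± 0.08, limma adjusted p = 3.34e-08). miR-1b, the most abundant miRNA, ranged over 362399 to 477644 (median 383531) in WKY and 330770 to 388012 (median 371000) in SHR (-0.12 ± 0.07, adjusted p = 0.243). The first was separated without overlap between groups, and the second overlapped. The sum of both was 466003 ± 49030.2 (SD, n = 6) in WKY and 481236 ± 34139.5 in SHR, a difference within the spread (two-sided exact permutation p = 0.567). As a share of that sum, a measure added after seeing the data, miR-1-3p made up 13.995 to 16.2 (median 15.3) percent in WKY, 23.8 to 25.002 (median 24.2) percent in SHR and 22.5 to 25.4 (median 24.4) percent in the QDG libraries (exact permutation p for SHR against WKY = 0.00216, the smallest 6 against 6 allows). The authors' rule for reads that fit both entries is unknown here, so the share describes the deposited values. The third member of the seed, miR-206-3p, of skeletal muscle, was 547 to 994 (median 658) in WKY and 467 to 771 (median 521) in SHR (-0.33 ± 0.13, adjusted p = 0.0698).

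Of the other muscle miRNAs, miR-208b-3p was called. It lies in an intron of Myh7, the gene for the slow myosin heavy chain, and rose from 112 to 219.8 (median 146) to 205 to 382 (median 279.7) (0.89 ± 0.16, adjusted p = 0.000132); the ranges overlapped slightly. miR-208a-3p, from the fast myosin gene Myh6, was 1395 to 2715 (median 2241) and 1736 to 2188 (median 1911) (-0.16 ± 0.12, adjusted p = 0.394). No tested member of the miR-133 family (3) or of the miR-499 family (2) was called by limma, DESeq2 or under TMM or RLE scaling, while 1 of the miR-133 family was lower without WKY replicate 1 and SHR replicate 5. Of the markers of other cell types, miR-200c-3p, of epithelium, was the only one called (0.36 ± 0.12, adjusted p = 0.0238), among 25 tested markers of endothelium, smooth muscle, fibroblasts, leukocytes, red blood cells, skeletal muscle, neurons, liver, epithelium, and islet and pituitary. That call was lost without WKY replicate 1 or 2 and without SHR replicate 1, 2 or 6. The 4 epithelial markers went both ways, with log2 changes from -0.35 to 0.36. They summed to 55.1 to 74.9 normalized reads in WKY and 65.0 to 86.0 in SHR, and the part of such cells in other results was not tested.

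The arm of origin was compared in 126 hairpins for which both arms were tested. In the hairpin's more abundant arm 42 miRNAs were called (33.3% of 126, 9 higher and 33 lower), and in the less abundant arm 14 (11.1%, 4 higher and 10 lower), whose median standard error was larger (0.16 against 0.12). Without WKY replicate 1 and SHR replicate 5 the more abundant arm had 6 higher and 37 lower, and the less abundant arm 2 higher and 16 lower. In 10 hairpins both arms were called, and in all 10 they moved the same way: miR-132, miR-378a, miR-452 and miR-146b rose, and miR-34b, miR-34c, miR-298, miR-547, miR-136 and miR-30d fell. Of these 10, 5 (miR-132, miR-452, miR-34b, miR-298 and miR-547) kept both calls in every alternative other than the stricter filter. Both miR-30d calls were lost under TMM and RLE scaling, without the 10 most abundant miRNAs in the scaling, and under DESeq2. The call of miR-378a-5p was lost without WKY replicate 1, and that of miR-146b-3p with SHR and WKY libraries alone and without any of WKY replicates 1, 3 and 5 or SHR replicates 1, 2 and 5. Without WKY replicate 1 and SHR replicate 5 together both arms were called in 11 hairpins. miR-378a, miR-146b and miR-30d were no longer among them, and let-7e, miR-127, miR-1839 and miR-30e were added. Both arms of 1 hairpin were called in opposite directions in 0 of 126. In 36 hairpins 1 arm alone was called, the more abundant arm in 32 of them, and in 41 of the 46 hairpins with a call the arms changed with the same sign. Across the 126 hairpins the changes of the 5p and 3p arms had a Pearson r of 0.72, a description only, since both arms come from 1 transcript and the same libraries.

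**Figure D2:**
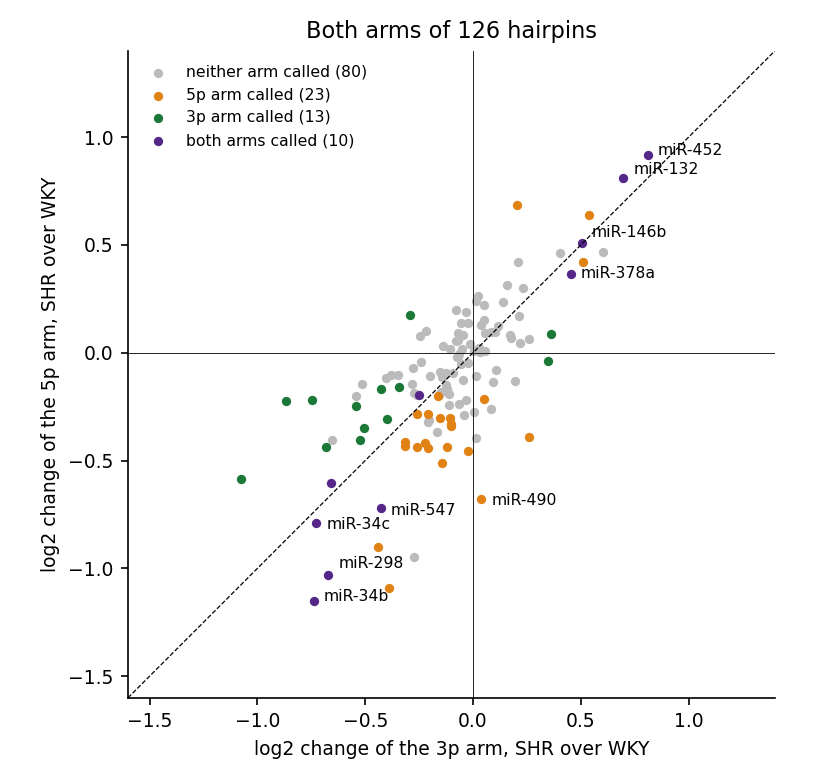
Log2 change of the 5p arm (vertical axis) against that of the 3p arm (horizontal axis), SHR over WKY, for 126 hairpins with both arms tested; the dashed line marks equal change. The 10 hairpins with both arms called (purple) lie in the upper right or lower left, and miR-490 sits below the line with its 5p arm at -0.68 and its 3p arm at 0.04.

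The balance between arms, tested as the change in log2 of 5p over 3p, was called in 1 hairpin of 126 (0.794%) by limma. It was miR-490, which lies within Chrm2, the gene for the muscarinic receptor of the heart. miR-490-5p, the minor arm, fell from 11.7 to 20.8 (median 15.8) to 8.57 to 11.5 (median 9.51) normalized reads (-0.68 ± 0.14, adjusted p = 0.000549), and miR-490-3p was 536 to 732 (median 638) and 571 to 720.5 (median 663) (0.04 ± 0.09, adjusted p = 0.808). The 5p share of the hairpin's reads was 2.14% to 3.11% (median 2.34%) in WKY, 1.30% to 1.68% (median 1.46%) in SHR and 1.31% to 1.96% (median 1.46%) in the QDG libraries. The SHR and WKY shares did not overlap, and the balance changed by -0.72 ± 0.12 on the log2 scale (SE, adjusted p = 0.000357), and was called in every limma alternative run. At an unadjusted p under 0.05, 20 hairpins passed, the next adjusted p was 0.136, and a pseudocount of 10 called 18 hairpins, of which the lowest minor arm averaged 0.937 normalized reads. The arm that was more abundant differed between groups in 2 low hairpins, miR-301a and miR-376b, and neither had a called balance.

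Summed over the tested hairpins, 5p arms made up 48.8 ± 2.36 percent of reads (SD, n = 6) in WKY, 45.5 ± 1.43 percent in SHR and 45.3 ± 0.921 percent in the QDG libraries (SHR against WKY, two-sided exact permutation p = 0.0108). The hairpin of miR-1-3p is not among them, since its 5p arm did not pass the filter. Over all listed hairpins the difference was -5.64 percentage points in place of -3.33. Such a pooled share weighs the most abundant arms most, such as miR-126a-3p with a WKY mean of 109616 normalized reads. It does not measure arm use within hairpins, where the balance was called in 1 of 126. By single miRNAs, 52 of 184 5p miRNAs were called (28.3%, 17 higher and 35 lower) and 37 of 197 3p miRNAs (18.8%, 11 higher and 26 lower).

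Of 50 seed families tested as the sum of their members, 7 rose (14%) and 6 fell (12%), 26% in either direction. The number that fell depended on the scaling, with 3 under TMM and 1 under RLE, while those that rose numbered 9 and 10. Without WKY replicate 1 and SHR replicate 5, 7 rose and 8 fell. The 7 families that rose were those of miR-132 and miR-212 (3p), miR-34 and miR-449 (5p), miR-221 and miR-222 (3p), miR-204 and miR-211 (5p), miR-130 and miR-301 (3p), miR-135 (5p), and miR-292 and miR-293 (5p). The last 3 had 1 tested member each among the matched miRNAs, miR-130a-3p, miR-135a-5p and miR-293-5p, with 99.6%, 97.2% and 76.6% of the summed reads. miR-301a-3p, tested as an arm above, is not in the miR-130 and miR-301 sum, which holds matched miRNAs only. The family of miR-221-3p, known from smooth muscle and endothelial growth, rose by 0.36 ± 0.12 (adjusted p = 0.0227), a call lost on leaving out SHR replicate 5, WKY replicate 1 or WKY replicate 6. The miR-135 family (0.90 ± 0.28, adjusted p = 0.0214) lost its call without SHR replicate 5. Its sum in WKY had a median of 0.763 and a lowest value of 0.447 normalized reads. The WKY libraries alone would not have passed the filter on low values, so the rise of miR-135 is a description only. The miR-292 and miR-293 family reached at most 0.224 normalized reads in a WKY library. It passed the filter on low values only through SHR and QDG libraries, so its rise is a description only. Families that fell were let-7 (5p and 3p), miR-30, miR-26, miR-450, and miR-34b and miR-34c (3p). Of these, miR-34b and miR-34c (3p) kept the call in every alternative run. The calls of let-7 5p and miR-450 were lost under RLE scaling. Those of let-7 3p and miR-26 were lost under TMM and RLE scaling and without the 10 most abundant miRNAs in the scaling. The let-7 3p call was also lost with SHR and WKY libraries alone and without any of WKY replicates 2, 4, 5 and 6 or SHR replicates 4, 5 and 6, and the miR-26 call without any of WKY replicates 4 and 5 or SHR replicates 4 and 5. Of 12 families with at least 3 tested members, 1 had members called in both directions.

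**Figure D3:**
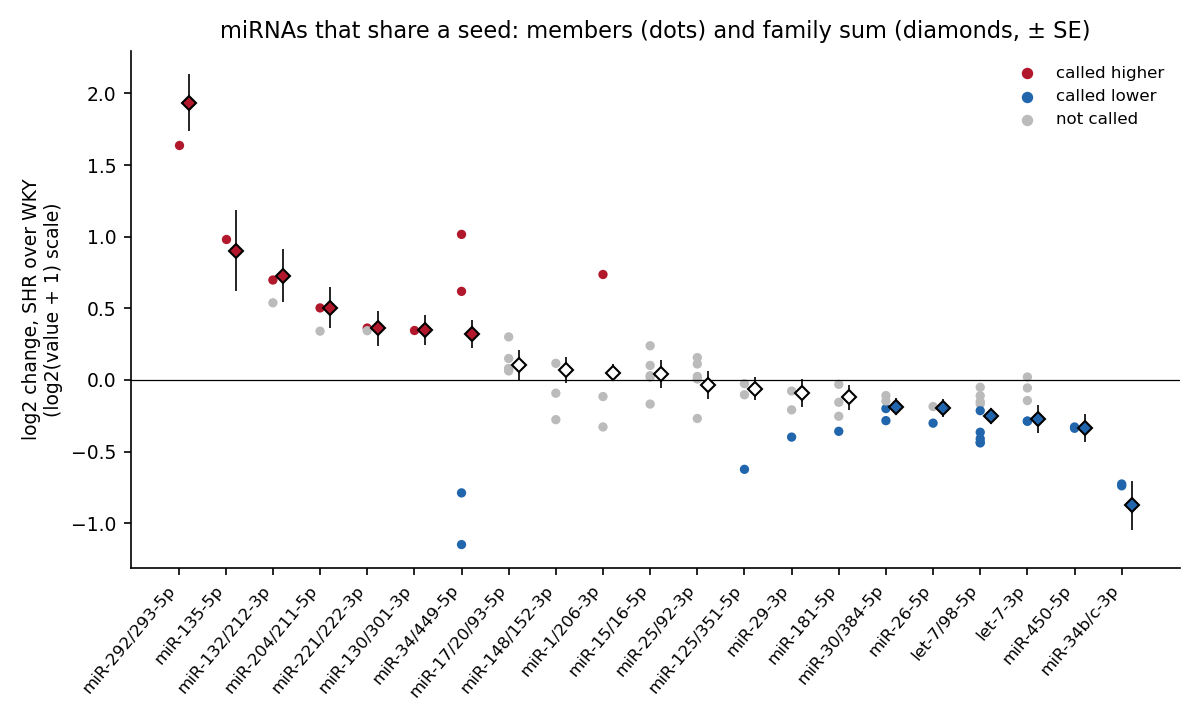
Log2 change in SHR over WKY (vertical axis) for the members (dots) and the family sum (diamonds with SE bars, filled where called) of each seed family that was called or had at least 3 tested members. The miR-34 and miR-449 family spans from -1.15 to 1.02, while the let-7 5p members all lie at or below -0.05.

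That family was miR-34 and miR-449, whose 5p members share the seed GGCAGUG and of which the miR-34 members are known as targets of p53. miR-34a-5p rose from 94.6 to 137 (median 115) normalized reads in WKY to 208 to 264 (median 236) in SHR, and was 218 at the QDG median (1.02 ± 0.10, limma adjusted p = 1.09e-08). miR-34b-5p fell from 15.2 to 31.8 (median 25.4) to 6.48 to 12.6 (median 10.3) (-1.15 ± 0.18, adjusted p = 2.30e-05). Neither overlapped between groups. miR-34c-5p fell from 89.9 to 128 (median 101) to 52.6 to 96.4 (median 55.9) (-0.79 ± 0.13, adjusted p = 8.28e-05), where SHR replicate 5 lay at 96.4 among the WKY values and the other 5 SHR libraries lay below them. miR-449a-5p, near the floor of detection, rose by 0.62 ± 0.19 (adjusted p = 0.0204), a call lost without WKY replicate 6 or SHR replicate 5. With miR-34a-5p as 66.6% of its reads, the family sum rose from 219 to 287 (median 254) to 278 to 378 (median 304) (0.32 ± 0.10, adjusted p = 0.015), and the rise was called in every alternative. The 3p strands of the same 2 hairpins fell too, miR-34b-3p by 0.74 ± 0.16 (adjusted p = 0.00066) and miR-34c-3p by 0.73 ± 0.23 (adjusted p = 0.0192); the latter lost its call without SHR replicate 1 and under DESeq2.

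The let-7 family, known for restraining growth through the RNA-binding protein LIN28 and cell cycle genes, fell. Summed over 9 tested 5p members it was 110668 to 134485 (median 122942) normalized reads in WKY and 101161 to 104002 (median 102689) in SHR (-0.25 ± 0.06, adjusted p = 0.00213, and 0.053 with RLE scaling). Of the 9, 5 fell and the other 4 had log2 changes below 0. let-7a-5p fell from 10136 to 11049 (median 10415) to 7673 to 8121 (median 7866) (-0.41 ± 0.07, adjusted p = 5.36e-05), with no overlap. let-7d-5p (-0.44 ± 0.09) and let-7e-5p (-0.43 ± 0.08) also did not overlap, while let-7b-5p, the member that changed least, was 2838 to 4018 (median 3172) in WKY and 2819 to 3601 (median 3259) in SHR (-0.05 ± 0.10). By name, 8 of 21 let-7 miRNAs of either arm were lower and 0 higher by limma, 5 lower under TMM and 5 under RLE scaling, and 0 higher under either or by DESeq2. let-7a-1-3p and let-7c-2-3p carry nearly the same values in every library, so their 2 calls are not independent. The let-7 3p sum holds both, with let-7c-2-3p alone as 47.2% of it, so its call rests largely on these shared values. Its member let-7f-1-3p had a log2 change of 0.02.

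Other families moved unevenly. The miR-30 family, enriched in heart muscle, was summed over miR-30a-5p, miR-30c-5p, miR-30e-5p and miR-384-5p, without miR-30b-5p and miR-30d-5p, which had no RefSeq match by name. That sum fell by 0.19 ± 0.06 (adjusted p = 0.0214), a call lost with TMM (0.086) and RLE scaling (0.140) and without WKY replicate 5 or SHR replicate 4. By name, 6 of 11 miR-30 miRNAs were lower and all 11 had a log2 change below 0, from -0.45 to -0.11; 3 were lower under TMM and 2 under RLE. In the miR-125 family, miR-351-5p, a rodent member encoded on X, fell from 306 to 456 (median 377) to 218 to 279 (median 237) (-0.62 ± 0.11, adjusted p = 7.33e-05). Its more abundant relatives miR-125a-5p (-0.10 ± 0.09) and miR-125b-5p (-0.03 ± 0.10) did not pass the test, and the sum did not either (-0.06 ± 0.08, adjusted p = 0.63). In the miR-29 family, known for its collagen targets, miR-29b-3p fell by 0.40 ± 0.11 (adjusted p = 0.00711), and miR-29a-3p was -0.08 ± 0.10. In the miR-181 family miR-181d-5p fell by 0.36 ± 0.09 (adjusted p = 0.00632) and the sum by limma did not pass (adjusted p = 0.383). In the miR-17 family 0 of 19 miRNAs by name were called by limma or under TMM scaling, 1 was higher under RLE scaling and 1 by DESeq2, and 2 were lower without WKY replicate 1 and SHR replicate 5.

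The cluster of miR-182, miR-96 and miR-183, known from sensory organs and epithelium, had the highest median log2 change of the clusters tested (1.58). miR-182 went from 5.82 to 7.59 (median 6.66) normalized reads in WKY to 23.5 to 34.8 (median 29.8) in SHR (1.98 ± 0.18, limma adjusted p = 6.86e-09). miR-96-5p went from 0.828 to 1.95 (median 1.05) to 3.92 to 7.64 (median 5.99) (1.58 ± 0.18), which is 38 recovered reads over the 6 WKY libraries and 190 over the 6 SHR libraries. miR-183-5p, named after its values were seen, went from 2.38 to 4.27 (median 3.93) to 6.09 to 10.5 (median 7.83) (0.98 ± 0.17). None of the 3 overlapped between groups. For miR-96-5p, the WKY libraries alone would not have passed the filter on low values (lowest 0.828). Its call, and the cluster median that it sets, are therefore a description only. The QDG medians were 40.8, 6.82 and 10.6 in the same order, with 1 QDG library at 15.9 for miR-182.

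The miR-132 and miR-212 cluster, which the transcription factor CREB is known to induce, had 3 of 4 tested miRNAs called higher, and 2 without WKY replicate 1 and SHR replicate 5. miR-132-5p rose from 6.25 to 13.5 (median 9.67) to 12.5 to 26.4 (median 17.4) (0.81 ± 0.17, adjusted p = 0.000687) and miR-132-3p from 4.88 to 8.70 (median 7.70) to 7.46 to 24.1 (median 11.6) (0.70 ± 0.19, adjusted p = 0.00684). Both ranges overlapped those of WKY, and the highest SHR library was replicate 5 for miR-132-3p; its call held without that library. miR-212-5p (0.64 ± 0.20, adjusted p = 0.0192, named after its values were seen) lost its call without SHR replicate 1 or 5, and miR-212-3p, near 1 normalized read, was 0.54 ± 0.25 (adjusted p = 0.121).

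**Figure D4:**
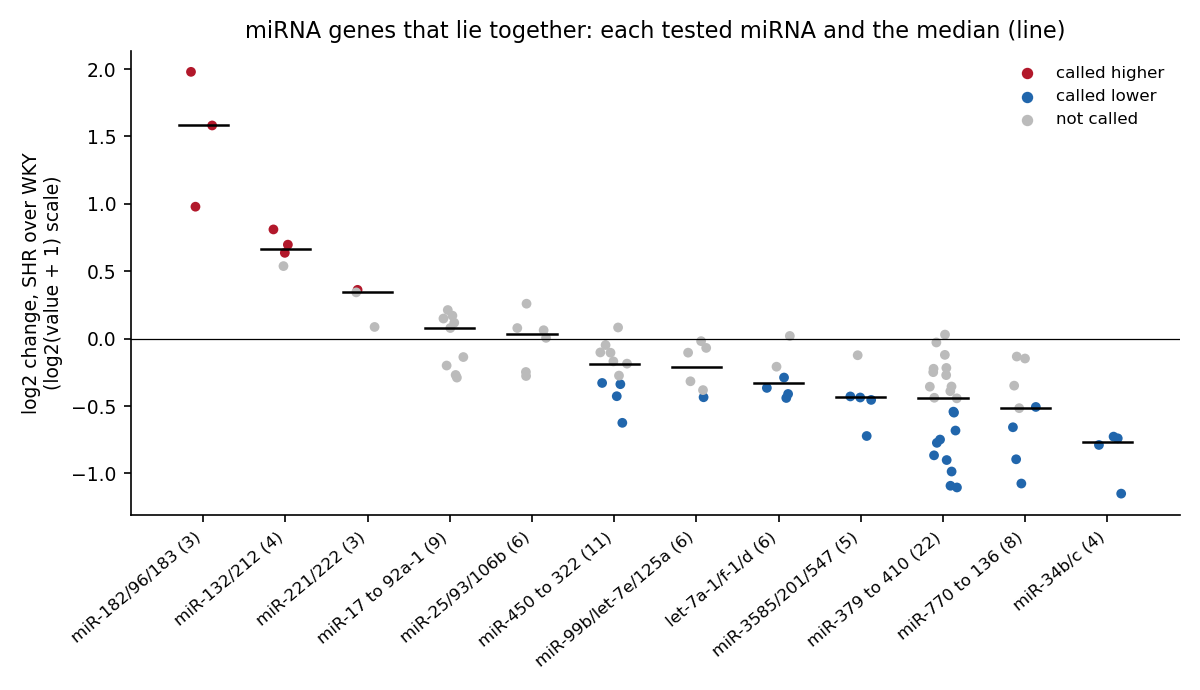
Log2 change in SHR over WKY (vertical axis) for each tested miRNA with a RefSeq match in 12 groups of neighbouring miRNA genes, with the number tested in brackets and the median as a line. All 3 miRNAs of the miR-182, miR-96 and miR-183 cluster lie at 0.98 or above and are called, and 1 of 22 in the group from miR-379 to miR-410 lies above 0.

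The group with the most called falls was that of the imprinted Dlk1-Dio3 region on chromosome 6, whose miRNAs are made from the maternal chromosome. Of 34 tested miRNAs of that list, 17 were lower by limma, 0 were higher and 33 had a log2 change below 0, with a median of -0.52 against -0.07 over all 410. With TMM scaling 15 were lower, with RLE 14, and by DESeq2 12, with 0 higher in each, and without WKY replicate 1 and SHR replicate 5 15 were lower. Their summed level was 263 to 334 (median 290.3) normalized reads in WKY, 122 to 208 (median 136) in SHR and 156 to 215 (median 198) in the QDG libraries, and the SHR and WKY sums did not overlap. miR-127-3p, the most abundant, fell from 129.9 to 181.7 (median 140.3) to 56.3 to 92.9 (median 62.9) (-1.07 ± 0.13, adjusted p = 2.62e-07). miR-379-5p fell from 11.9 to 21.7 (median 17.9) to 6.52 to 9.77 (median 7.05) (-1.09 ± 0.19) and miR-411-5p from 11.8 to 23.4 (median 16.9) to 7.36 to 11.8 (median 8.13) (-0.90 ± 0.16), none of the 3 with overlap. Below 10 normalized reads, miR-494-3p (-1.10 ± 0.19), miR-541-5p (-0.99 ± 0.18) and miR-337-5p (-0.89 ± 0.19) fell with slight overlap. Both arms of miR-136 fell as well, with log2 changes of -0.60 ± 0.20 for 5p and -0.66 ± 0.17 for 3p; the 5p call was lost on leaving out any of WKY replicates 2, 3 and 6 or of SHR replicates 1 and 2. By position, 10 of 22 tested miRNAs with a RefSeq match from miR-379 to miR-410 and 4 of 8 from miR-770 to miR-136 were lower (5 of 10 with miR-127-5p and miR-136-5p, which had no match). Leaving the 34 out, 33 of the other 376 miRNAs were higher and 45 lower.

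On X, 2 clusters held at least 4 called falls. In the cluster of miR-3585, miR-201 and miR-547, 4 of 5 matched miRNAs were lower (4 of 6 with miR-201-3p, which had no match and a log2 change of -0.02), led by miR-547-5p, which went from 21.1 to 28.7 (median 25.8) to 11.9 to 16.7 (median 15.7) (-0.72 ± 0.14, adjusted p = 0.000326). miR-201-5p (-0.45 ± 0.14) lost its call without WKY replicate 5, and miR-3585-5p (-0.44 ± 0.14) without SHR replicate 1 or 2. In the cluster from miR-450 to miR-322, which holds miR-351-5p, 4 of 11 were lower, 3 under TMM and 2 under RLE scaling or by DESeq2. Over all X miRNAs with a match, 1 of 61 was higher and 11 lower, which is 19.7% called, beside 24.1% of the 311 on autosomes. The 4 miRNAs of the miR-34b and miR-34c cluster, on chromosome 8, were all lower.

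Of the remaining single miRNAs, several changed by more than 1 on the log2 scale. miR-190b-5p rose from 3.30 to 8.28 (median 3.89) to 11.99 to 17.3 (median 13.8) normalized reads (1.49 ± 0.16, limma adjusted p = 3.34e-08), while miR-190a-5p, which has the same seed and was named after its values were seen, was 34.6 to 57.5 (median 49.2) and 41.4 to 55.9 (median 49.8) (0.02 ± 0.13). miR-184, known from the eye, rose from 0.739 to 2.17 (median 1.43) to 3.60 to 8.78 (median 6.44) (1.56 ± 0.22, adjusted p = 5.50e-06). With a WKY library at 0.739, the WKY libraries alone would not have passed the filter on low values, so the call of miR-184 is a description only. miR-293-5p, of a cluster known from embryonic stem cells, had 3 reads over all 6 WKY libraries and 85 over the 6 SHR libraries, a ratio of 26.3 per read of the authors' divisor (exact 95% interval 8.71 to 130.3, counting error only), and 82 over the 6 QDG libraries. No SHR library had fewer than 9 of those reads and no WKY library more than 1. miR-293-5p therefore passed the filter on low values only through SHR and QDG libraries, and its call and ratio are a description only. In the other direction, miR-598-3p fell from 59.5 to 81.2 (median 75.3) to 27.2 to 39.9 (median 33.6) (-1.06 ± 0.11, adjusted p = 3.34e-08) and miR-298-5p from 5.95 to 11.4 (median 8.42) to 2.22 to 4.89 (median 3.74) (-1.03 ± 0.19), both with no overlap.

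Changes of intermediate size were found in miRNAs of several known settings. miR-452-5p rose from 14.7 to 27.8 (median 17.7) to 31.9 to 45.1 (median 38.8) (0.92 ± 0.16, adjusted p = 0.000118) and miR-708-5p from 11.2 to 12.8 (median 12.5) to 16.5 to 23.6 (median 20.5) (0.69 ± 0.12), both with no overlap. The inflammation-linked miR-146b-5p (0.51 ± 0.14) and miR-155-5p (0.48 ± 0.14) rose, and the call for miR-146b-5p was lost without WKY replicate 1 and SHR replicate 5 together. miR-331-3p (0.51 ± 0.12), miR-204-5p (0.50 ± 0.15) and miR-484 (0.52 ± 0.18) rose too, the last with its call lost on leaving out WKY replicate 1 or 6, or any of SHR replicates 1, 3 and 6. miR-210-3p, the best known target of hypoxia signalling among miRNAs, fell from 296 to 495 (median 389) to 255 to 296 (median 268) (-0.52 ± 0.10, adjusted p = 0.000151), with no overlap. miR-1843a-5p (-0.51 ± 0.09) and miR-30c-1-3p (-0.45 ± 0.11) fell as well.

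**Figure D5:**
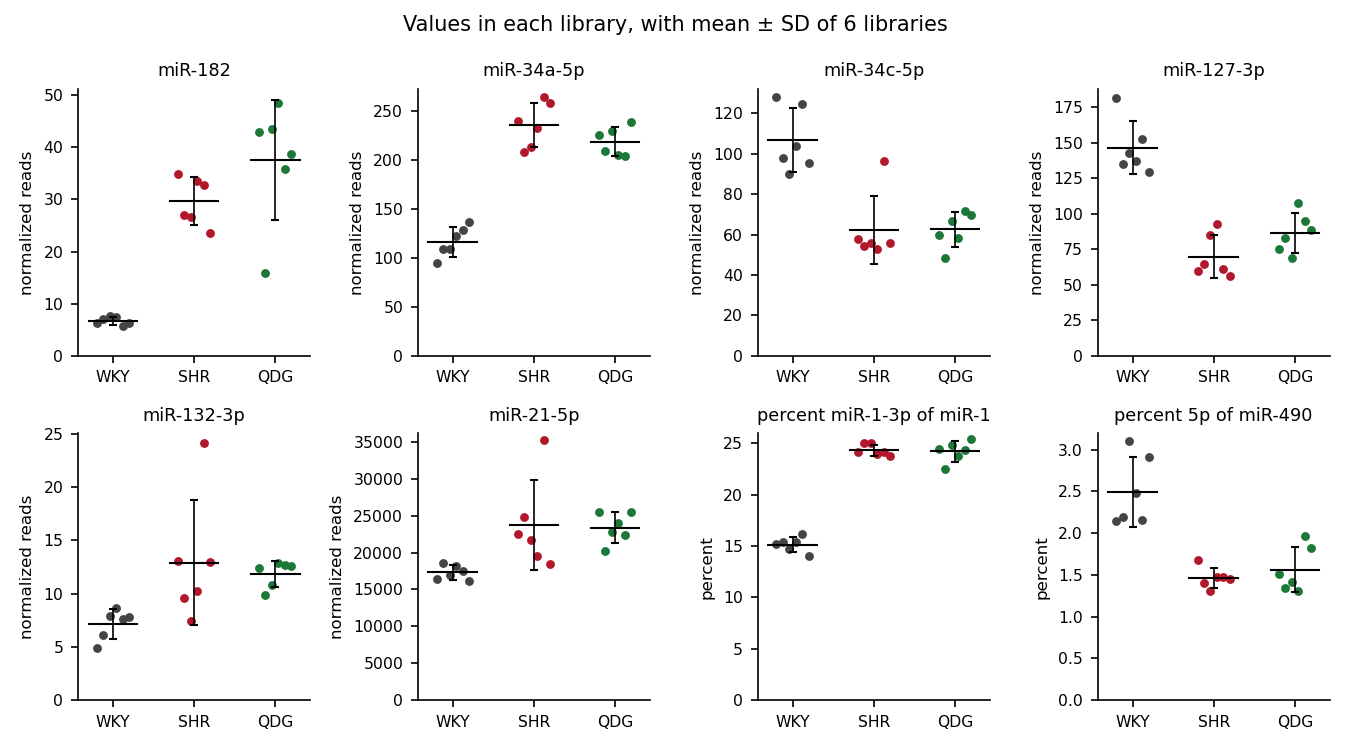
Values in each of 18 libraries (points) with the mean and SD of 6 (line and bar) for 6 miRNAs in normalized reads, for miR-1-3p as a percent of miR-1-3p plus miR-1b, and for the 5p arm as a percent of miR-490 reads. WKY and SHR do not overlap for miR-182, miR-34a-5p, miR-127-3p and both percentages, and SHR replicate 5 lies apart for miR-34c-5p, miR-132-3p and miR-21-5p.

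A few large differences did not pass the test, with libraries of a group that scattered widely; these were picked after their values were seen. miR-741-3p was 0.330 to 7.66 (median 6.16) in WKY and 0 to 24.3 (median 0.282) in SHR (-1.30 ± 0.76, adjusted p = 0.265). miR-10b-5p was 111 to 338 (median 269) and 56.998 to 308 (median 111) (-0.95 ± 0.37, adjusted p = 0.0823). miR-122-5p, the liver's main miRNA, was 0.610 to 18.02 (median 4.30) and 0.786 to 4.72 (median 1.89) (-0.84 ± 0.49, adjusted p = 0.265). In all 3 the ranges of the groups overlapped.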

How the data were processed

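Small RNA of rat heart was sequenced in 18 libraries. Per the labels' protocols, RNA was extracted with Trizol and libraries were made with a NEBNext small RNA kit; per the submitters' processing notes, FastQC, TopHat2 and limma were used, with no version or role. Build and annotation of the authors' counting, and their rule for reads that fit several miRNAs, are not given in these sources. The deposited values are a normalized read signal per mature miRNA, per the file headers; each was within 0.01 of a whole number of reads after division by the library's step (10782 of 10782 values), so reads were recovered. Reads over miRNAs exceed the authors' divisor 1.34 to 1.51 times in WKY and SHR.

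miRNAs with at least 1 normalized read in at least 6 libraries were tested with limma 3.58.1 (R 4.3.3) on log2(value + 1) over all 18 libraries, with variance trend and robust moderation, as SHR minus WKY; fold changes on this scale understate those of low miRNAs. The threshold was a Benjamini-Hochberg adjusted p of 0.05 over all features of a table. The same fit was applied to log2 of 5p over 3p and to sums over miRNAs with a shared seed; for shares of reads, exact permutation tests (two-sided) were used. Alternatives were edgeR 4.0.16 and DESeq2 1.42.0 on recovered reads, other pseudocounts, filters, scalings and left-out libraries. Fits were tested on simulated data. Intervals cover counting error only. RefSeq sequences (GRCr8) gave seeds and positions; 56 listed miRNAs had no match by name and 1 had more than 1 sequence.

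miRNAs were named by a rule: up to 15 rises and 15 falls of largest change at a mean of 10 or more over SHR and WKY, up to 4 and 4 below it, the 12 most abundant, both arms of hairpins with a called balance or both arms called, the extremes of seed families with at least 3 tested members, and the lowest adjusted p of each abundance class. Members and lists were chosen with earlier results of these data known.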

Additional observations from a re-analysis of the deposited data

Results flagged for a closer look

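Of 174 groups of 6 libraries checked for a single value far from the rest (79 named miRNAs, the shares of reads and the reads per divisor read, in WKY and SHR), 16 held one; chance gives about 1 in 20. WKY replicate 1 held these values apart: let-7d-5p at 2797 (lowest, nearest 3225), miR-181a-5p at 3108 (lowest, nearest 3906), miR-1b at 477644 (highest, nearest 385672), miR-206-3p at 994 (highest, nearest 689), the percent of reads in the class from 10 to 100 at 0.219 (lowest, nearest 0.262) and the percent of reads in the class from 100 to 1000 at 1.82 (lowest, nearest 2.13). SHR replicate 3 held these values apart: miR-298-3p at 4.32 (highest, nearest 2.57), miR-30c-1-3p at 59.7 (lowest, nearest 65.6) and miR-337-5p at 2.16 (highest, nearest 1.2). SHR replicate 5 held these values apart: miR-132-3p at 24.1 (highest, nearest 13) and miR-34c-5p at 96.4 (highest, nearest 57.8). WKY replicate 4 stood apart for miR-190b-5p at 8.28 (highest, nearest 4.42). SHR replicate 1 stood apart for miR-206-3p at 771 (highest, nearest 577). SHR replicate 4 stood apart for miR-379-5p at 9.77 (highest, nearest 7.16). SHR replicate 6 stood apart for miR-452-3p at 5.94 (lowest, nearest 8.56). WKY replicate 3 stood apart for miR-494-3p at 2.14 (lowest, nearest 4.42). Single miRNA values are normalized reads. Leaving out the library named ended the limma call of none of let-7d-5p, miR-132-3p, miR-190b-5p, miR-30c-1-3p, miR-337-5p, miR-34c-5p, miR-379-5p, miR-494-3p, miR-298-3p and miR-452-3p.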

How the results depend on the processing

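Of 95 called miRNAs, 80 kept their call under TMM, RLE and the scaling without the 10 most abundant miRNAs (33 higher, 47 lower), and 61 kept it under all 23 alternatives other than the stricter filter; 0 changed sign. The count of higher miRNAs was 33, 21 with at least 10 normalized reads in 6 libraries (fewer miRNAs tested) and 52 with DESeq2. The count of lower miRNAs stayed within 1.5 times of 62. Leaving out 1 library gave 26 to 35 higher and 49 to 80 lower. Hairpins with a called arm balance numbered 1, but 18 with a pseudocount of 10, 9 with no filter and 2 with SHR and WKY libraries alone, with 1 to 2 when 1 library was left out; edgeR and DESeq2 were not applied to arm balance. Lower seed families numbered 6, but 3 with TMM and 1 with RLE, and 3 to 9 with 1 library left out (3 without WKY replicate 5 or SHR replicate 4); higher families numbered 5 to 8. The cause was not tested.

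No label says that replicate numbers pair the libraries. Same-numbered WKY and SHR libraries had correlations of deviations from -0.17 to 0.23, and in 0 of 6 cases was the same number the best match. With 6 pairs, a weak pairing could have been missed. The replicate block gave 32 higher and 61 lower miRNAs, 9 higher and 8 lower families and 1 hairpin.

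The SHR minus WKY difference in the share of 5p reads was -3.99 to -2.64 points with 1 library left out, and that of the class from 10 to 100 was -0.0096 to 0.0037 points, crossing 0. The miR-1-3p share differed by 8.98 to 9.41 points.

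Uncalled miRNAs near 0 changed sign. With TMM, RLE, the scaling without the 10 most abundant, and DESeq2, the log2 changes were 0.0239, 0.0505, 0.0242 and 0.0514 for miR-125b-5p, 0.0377, 0.0643, 0.0380 and 0.0556 for miR-133a-3p, 0.0194, 0.0460, 0.0197 and 0.0498 for miR-181a-5p, and 0.0266, 0.0532, 0.0269 and 0.0514 for miR-27b-3p. let-7b-5p was 0.0255 with RLE and 0.0232 with DESeq2. With 1 library left out, let-7b-5p ranged over -0.0957 to 0.00456, let-7f-1-3p -0.0766 to 0.0743, miR-125b-5p -0.0817 to 0.0152, miR-133a-3p -0.136 to 0.0593, miR-181a-5p -0.0974 to 0.00159, miR-27b-3p -0.0771 to 0.0195, miR-490-3p -0.0100 to 0.0796 and miR-93-5p -0.0118 to 0.120. Without WKY replicate 1 and SHR replicate 5 together, let-7f-1-3p was -0.0691, miR-490-3p -0.0382 and miR-93-5p -0.0593.

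With 6 libraries a group and miRNAs below 10 normalized reads resting on few reads, small changes at low levels were not detectable at this depth.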
